A study of Mus musculus with 8 samples.

Results

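The Wnt ligand, Frizzled receptor and inhibitor genes were examined in the mouse ventral prostate with and without a human SKP2 knock-in. The set was taken by gene symbol from the deposited expression table. It held 19 Wnt ligand genes, 10 Frizzled (Fzd) receptor genes, 4 secreted Frizzled-related protein (Sfrp) genes, 4 Dickkopf (Dkk) genes, 4 R-spondin (Rspo) genes, and Wif1, Axin2, Lgr5 and Notum, which makes 45 of the 36333 genes in the table. A level of at least 1 TPM (a length-corrected share of each library's transcripts) in at least 4 of the 8 samples was required for testing, and 27 of the 45 genes reached it, among 13080 genes in all.

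The samples were ventral prostates of 4 hSKP2-KI and 4 wild-type (WT) FVB/N male mice, all 12 months of age, with 1 poly(A) RNA-seq library per mouse. In hSKP2-KI mice a P2A peptide and the human SKP2 coding sequence sit in the first exon of the endogenous, X-linked probasin gene, so that the knock-in is driven by the promoter of a secretory protein of the prostate epithelium, while WT mice carry an intact probasin gene. The knock-in males came from heterozygous females bred to WT FVB/N males, and which founder line was sequenced is not given in the sources used here. SKP2 is the substrate-recognition subunit of a ubiquitin ligase that targets cell cycle inhibitors such as p27.

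Wnt ligands are lipid-modified secreted proteins that bind Frizzled receptors, with Lrp5 or Lrp6 as co-receptors, and in the canonical branch they stop the Axin and Apc complex from marking beta-catenin for destruction, so that beta-catenin enters the nucleus and acts with TCF and LEF factors. Sfrp proteins and Wif1 bind Wnt ligands outside the cell, Dkk proteins act on the co-receptors, Notum removes the lipid from Wnt, and R-spondins raise Frizzled levels at the membrane through Lgr receptors. In the prostate, Wnt genes are active in both epithelium and stroma, and the stroma is a known source of secreted Wnt inhibitors.

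The promoter windows of the set were searched for TCF/LEF heptamers. RefSeq windows of 300 bases (GRCm38.p6, 250 bases before to 50 after a transcript start) were at hand for 29 of the 45 genes. The genes without a window were Wnt5a, Wnt7b, Wnt8a, Wnt10a, Fzd2, Fzd3, Fzd6, Fzd8, Sfrp1, Sfrp4, Dkk3, Dkk4, Rspo2, Rspo3, Lgr5 and Notum. Both strands were searched for the heptamer CTTTGAA, for its variant CTTTGAT that ends in another base, and likewise for the variant CTTTGTA and, as the last of these motifs, the variant CTTTGTT. At least 1 of them was found in 5 of the 32 windows of the set (15.6%), compared with 16.9% of all 32851 windows and 11.3% of the windows of tested genes. Among the genes that passed the expression filter, 2 of 18 windows (11.1%) held a match, those of Fzd7 and of 1 of the 3 Wnt5b starts. The median GC content was 66.5% in the windows of set genes that passed the filter and 60.7% in those of all tested genes, with a median of 26 and 20 CpG dinucleotides. Over all windows of the set, expressed or not, it was 69.5%, with 28 CpG dinucleotides. The other 3 windows with a match were those of Dkk1, Wnt3 and 1 Wnt11 start, genes below the filter that are not shown. The 250 bases before the start are shown for Sfrp2, a gene called higher under every scaling tried, and for Axin2, the feedback inhibitor that beta-catenin induces. They are also shown for the starts with a match among genes that passed the filter, where capitals mark the heptamer. It is CTTTGTT on the minus strand for Fzd7, 130 bases before the start, and CTTTGAT on the plus strand for Wnt5b, 71 bases before it.
Sfrp2 (chr3:83766071-83766320, plus strand): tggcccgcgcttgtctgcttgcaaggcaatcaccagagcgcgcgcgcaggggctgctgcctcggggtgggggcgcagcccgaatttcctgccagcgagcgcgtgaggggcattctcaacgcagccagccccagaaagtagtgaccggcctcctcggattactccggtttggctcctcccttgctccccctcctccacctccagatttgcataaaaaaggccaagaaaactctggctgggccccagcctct
Axin2 (chr11:108920099-108920348, plus strand): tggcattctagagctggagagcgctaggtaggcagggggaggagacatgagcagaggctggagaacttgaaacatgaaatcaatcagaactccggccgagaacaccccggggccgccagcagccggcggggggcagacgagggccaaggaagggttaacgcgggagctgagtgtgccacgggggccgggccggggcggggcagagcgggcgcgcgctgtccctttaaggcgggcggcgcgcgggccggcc
Fzd7 (chr1:59481897-59482146, plus strand): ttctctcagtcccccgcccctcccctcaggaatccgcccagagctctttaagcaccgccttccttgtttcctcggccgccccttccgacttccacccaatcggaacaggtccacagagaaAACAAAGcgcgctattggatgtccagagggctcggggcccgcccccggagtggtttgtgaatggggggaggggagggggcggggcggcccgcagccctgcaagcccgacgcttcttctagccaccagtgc
Wnt5b (chr6:119449387-119449636, minus strand): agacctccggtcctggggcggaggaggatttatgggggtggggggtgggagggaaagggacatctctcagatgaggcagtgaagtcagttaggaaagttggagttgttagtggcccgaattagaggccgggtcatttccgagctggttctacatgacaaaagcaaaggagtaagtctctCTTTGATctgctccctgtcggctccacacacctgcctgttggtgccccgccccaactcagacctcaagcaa
The windows of Sfrp2 and Axin2 held none of the 4 heptamers, which speaks only of these letters in these windows. Both windows lie inside the annotated gene, which begins at 83765750 for Sfrp2 and at 108917828 for Axin2. The bases before those positions were not searched.

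Skp2 was 37.3 to 60.6 TPM in the hSKP2-KI samples and 1.05 to 2.27 TPM in the WT samples, and Pbsn, the gene that carries the insert, was 93.0 to 174 TPM and 3980 to 9230 TPM, so all 8 libraries matched their labels. Whether reads of the human insert were counted under mouse Skp2 was not tested. The seminal vesicle markers Svs2, Svs4, Svs5 and Svs6 summed to at most 0.656 TPM in any sample, with Svs2 at 0 in all 8. Sequencing depth cannot be read from TPM, and a value of 0 may be a failed estimate. TPM was higher in hSKP2-KI for most genes, with a median log2 fold change of 0.23 over all tested genes. Dividing each sample by its median ratio to the other samples (size factors of 1.07 to 1.14 in hSKP2-KI and 0.82 to 0.986 in WT) took that median to -0.02. Both scales are given below for most single genes that were tested and for counts of calls, while summed TPM are as deposited. A gene is said to have risen only where it was called at an adjusted p under 0.05 under 4 scalings (TPM as deposited, median-ratio scaling, quantile normalization and TPM without the 20 most abundant genes), and log2 fold changes are on the log2(TPM + 1) scale, which understates changes of low genes.

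**Figure D1:**
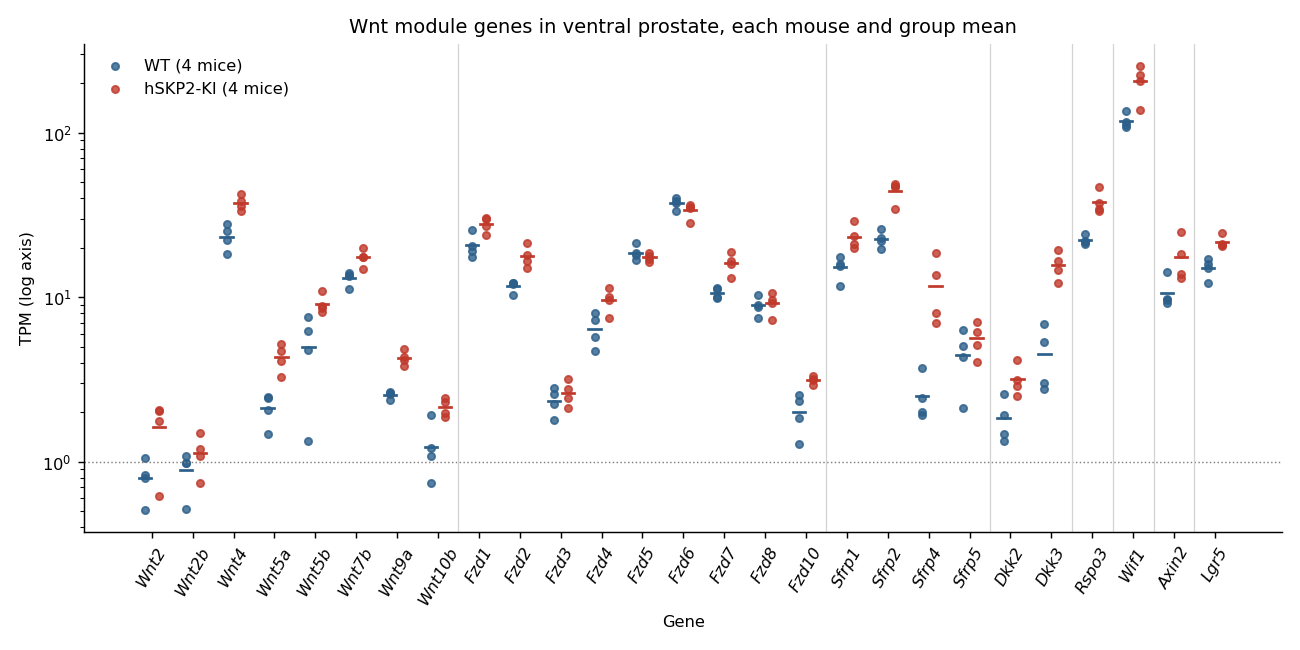
TPM (log axis) of the 27 Wnt module genes that passed the filter, with 1 point per mouse (blue, WT; red, hSKP2-KI; n = 4 each), horizontal bars at the group means and a dotted line at 1 TPM. Wif1 lies above all the others, and Fzd5 and Fzd6 are the genes whose group mean is lower in hSKP2-KI. In 15 of the 27 genes, Sfrp2, Sfrp4, Dkk3 and Rspo3 among them, all hSKP2-KI points lie above the WT points.

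In TPM as deposited, most tested genes of the Wnt module stood higher in hSKP2-KI prostates, with the largest differences for the secreted inhibitors Sfrp4 and Dkk3. The group mean was higher in hSKP2-KI for 25 of the 27 genes, Fzd5 and Fzd6 being the exceptions. The matching share of all tested genes was not counted, but their median log2 fold change was above 0, and 22 of the 27 lay above that median. After median-ratio scaling Fzd3 (-0.08) and Fzd8 (-0.22) were below 0 as well. In TPM as deposited, 19 of the 27 tested genes were called higher (70.4%), against 32.7% of all tested genes, and 0 were called lower (0 also at an unadjusted limma p under 0.05), against 1.23%. In either direction 33.9% of all tested genes were called. Their median log2 fold change was 0.55, beside 0.23 over all tested genes. The genotypes did not overlap in 15 of the 27, all higher in hSKP2-KI, against 34.0% of tested genes that were higher and 1.03% that were lower without overlap. After median-ratio scaling, 5 of the 27 were called higher (18.5%, background 6.64%) and 2 lower (background 4.76%), with a median of 0.32 beside -0.02. On that scale 6 were higher (Wnt5a, Wnt9a, Fzd10, Sfrp4, Dkk3 and Rspo3) and 2 lower (Fzd5 and Fzd6) without overlap (background 9.68% and 9.93%), and all the others overlapped. Under all 4 scalings, 4 genes were called higher (Sfrp2, Sfrp4, Dkk3 and Rspo3; background 4.87%) and 0 lower (background 1.19%). In bulk tissue, a change in the number of cells of a type and a change in RNA per cell cannot be told apart.

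**Figure D2:**
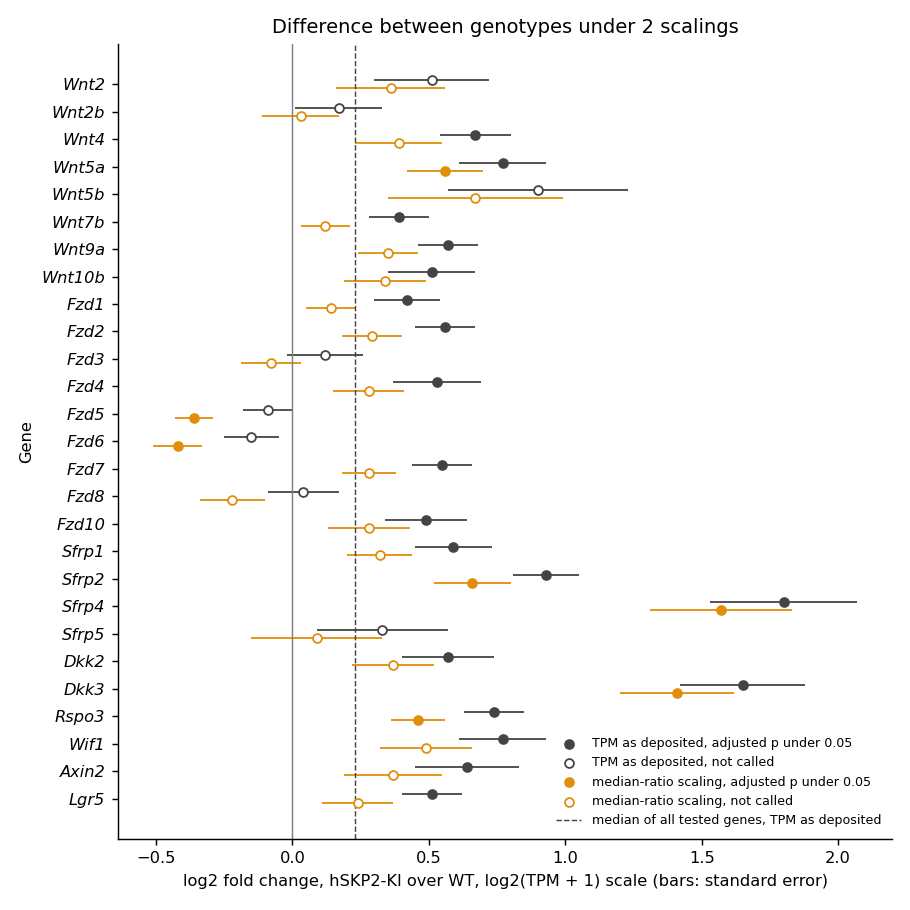
Log2 fold change of each of the 27 genes, hSKP2-KI over WT (n = 4 each), in TPM as deposited (grey) and after median-ratio scaling (orange), with bars for the standard error and filled points for an adjusted p under 0.05. Sfrp4 (1.80) and Dkk3 (1.65) lie farthest to the right under both scalings, and the dashed line marks the median of all tested genes, 0.23.

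Wnt4 was the most abundant ligand transcript in both genotypes, followed by Wnt7b. Wnt4 is a ligand of ductal epithelia that hormones regulate in several tissues. It measured 42.4, 38.6, 36.1 and 33.4 TPM in hSKP2-KI and 27.9, 18.3, 22.3 and 25.2 TPM in WT. Every hSKP2-KI sample lay above every WT sample, and Wnt4 was called higher in TPM as deposited, with a log2 fold change of 0.67 (SE 0.13, limma adjusted p = 0.00441). After median-ratio scaling its difference was 0.39 (limma adjusted p = 0.14). Wnt7b, which signals from epithelium to the tissue around it, measured 17.7, 14.8, 17.7 and 19.9 TPM in hSKP2-KI and 11.3, 14.0, 13.4 and 13.7 TPM in WT. Its log2 fold change was 0.39 in TPM as deposited (SE 0.11, limma adjusted p = 0.0206) and 0.12 after scaling (limma adjusted p = 0.403). Exons of Wnt7b share 324 bases (6.61% of its exonic length) with the antisense gene AU022754, which stood at a mean of 45.4 TPM in hSKP2-KI and 33.6 TPM in WT, and since the use of strand in counting is not given in the sources used here, reads of this pair cannot be told apart there.

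Wnt5a, the prototype non-canonical ligand and a gene of prostate mesenchyme, had a ratio of means of 2.04 in TPM as deposited. Its values were 4.08, 4.71, 3.27 and 5.21 TPM in hSKP2-KI and 2.07, 2.46, 1.47 and 2.47 TPM in WT, with no overlap. The log2 fold change was 0.77 (SE 0.16, limma adjusted p = 0.00602), and 0.56 after median-ratio scaling (limma adjusted p = 0.0333). Under quantile normalization it was 0.44 and no longer called (limma adjusted p = 0.0766), and after median-ratio scaling the call was lost in 7 of the 8 fits that left out 1 sample and kept without hSKP2-KI replicate 3.

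Wnt5b, the close relative of Wnt5a, varied widely among the WT mice. It measured 8.58, 11, 8.14 and 8.80 TPM in hSKP2-KI and 1.34, 7.61, 4.77 and 6.28 TPM in WT, where replicate 1 was far below the other WT samples although no WT sample reached a hSKP2-KI value. The log2 fold change was 0.90 (SE 0.33, limma adjusted p = 0.054). Without WT replicate 1 it was 0.50 and called (limma adjusted p = 0.0425), and without WT replicate 2 it was 1.13 and called (limma adjusted p = 0.0264). Those values are for TPM as deposited. After median-ratio scaling the log2 fold change was 0.67 and not called (limma adjusted p = 0.199). On that scale it was called in none of the 8 fits that left out 1 sample.

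The remaining ligands were low. Wnt9a measured 3.80 to 4.85 TPM in hSKP2-KI and 2.38 to 2.66 TPM in WT and was called higher in TPM as deposited (0.57, SE 0.11, limma adjusted p = 0.00461), with 0.35 after median-ratio scaling (limma adjusted p = 0.0637) and no overlap on either scale. Wnt10b, a canonical ligand, stood at 2.15 ± 0.261 TPM (SD, n = 4) and 1.24 ± 0.495 TPM, with a call in TPM as deposited (0.51, limma adjusted p = 0.0336) and none after scaling (0.34, limma adjusted p = 0.156). Wnt2, a stromal ligand in several organs, measured 0.624, 2.08, 2.03 and 1.77 TPM in hSKP2-KI against 0.511 to 1.05 TPM in WT. It was not called (0.51, SE 0.21, limma adjusted p = 0.0752), but was called without hSKP2-KI replicate 1, the one low knock-in sample (0.73, limma adjusted p = 0.00882). After median-ratio scaling it was 0.36 (limma adjusted p = 0.268) and was called only without that replicate (0.56). Wnt2b was 1.13 ± 0.308 TPM and 0.898 ± 0.257 TPM (0.17, limma adjusted p = 0.398), with 0.03 after scaling (limma adjusted p = 0.918).

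Of the 11 ligands below the filter, Wnt3, Wnt7a and Wnt8a were listed at 0 in all 8 samples. Wnt6 was the one whose groups did not overlap in TPM as deposited, although they did after median-ratio scaling, at 1.97, 0.970, 1.23 and 1.06 TPM in hSKP2-KI and 0.439, 0.512, 0.372 and 0.821 TPM in WT. In a fit with no filter on low values its log2 fold change was 0.58 (SE 0.15, limma adjusted p = 0.0378). Wnt11, a non-canonical ligand, reached 2.51 TPM in hSKP2-KI replicate 2 and overlapped between genotypes. Wnt1, Wnt3a, Wnt8b, Wnt9b, Wnt10a and Wnt16 stayed at or below 0.605 TPM in every sample.

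In TPM as deposited, the 19 ligand transcripts together summed to 81.6 ± 3.48 TPM in hSKP2-KI and 50.9 ± 3.01 TPM in WT. They ranged from 77.3 to 85.3 and from 48.7 to 55.2, and these sums carry the upward shift of TPM in hSKP2-KI. Wnt4 held 46.1 ± 3.36% of this pool in hSKP2-KI and 46.2 ± 8.42% in WT, and the share of each of the 8 tested ligands overlapped between genotypes. Wnt5b was the most uneven, with a share of 2.74% in WT replicate 1 and 9.81 to 15.1% in the other WT samples.

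The Frizzled receptors, the seven-pass receptors of Wnt ligands, did not move as a block. Of the 9 tested, 5 were called higher in TPM as deposited (55.6%, against 32.7% of all tested genes). These were Fzd1, Fzd2, Fzd4, Fzd7 and Fzd10, with log2 fold changes of 0.42 to 0.56. None of the 9 was called higher after median-ratio scaling (background 6.64%), where these 5 were 0.14 to 0.29. Fzd2 measured 18, 21.5, 16.7 and 15 TPM in hSKP2-KI and 10.3, 12.2, 12.2 and 12.1 TPM in WT. Fzd7, a receptor of stem and progenitor cells in several epithelia whose promoter window holds the CTTTGTT match shown above, measured 16, 18.8, 13.2 and 16.6 TPM against 9.90, 11.4, 10.1 and 11.3 TPM. Neither overlapped between genotypes in TPM as deposited. Fzd10 measured 2.95 to 3.32 TPM and 1.28 to 2.54 TPM, without overlap on either scale, and Fzd1 (23.8 to 30.4 TPM and 17.5 to 25.8 TPM) and Fzd4 (7.48 to 11.4 TPM and 4.72 to 8.02 TPM) overlapped.

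Fzd6 and Fzd5 went the other way relative to the rest of the transcriptome. Fzd6, best known from planar polarity of hair follicles, was the most abundant Frizzled transcript, at 28.2, 35.4, 35.1 and 36.5 TPM in hSKP2-KI and 37.4, 40.2, 38.6 and 33.4 TPM in WT. Fzd5, an epithelial receptor in the intestine among other organs, measured 16.4, 17.9, 17.1 and 18.5 TPM in hSKP2-KI and 16.9, 21.4, 18.6 and 18 TPM in WT. In TPM as deposited both overlapped between genotypes and neither was called, with log2 fold changes of -0.15 for Fzd6 (SE 0.10, limma adjusted p = 0.244) and -0.09 for Fzd5 (SE 0.09, limma adjusted p = 0.43).

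After median-ratio scaling both were called lower without overlap. Fzd6 was -0.42 (SE 0.09, limma adjusted p = 0.022) and Fzd5 was -0.36 (SE 0.07, limma adjusted p = 0.0107). Quantile normalization gave -0.37 and -0.34, and leaving the 20 most abundant genes out of the TPM gave -0.39 and -0.33, with both genes called under each. After median-ratio scaling the Fzd5 call was kept in all 8 fits that left out 1 sample, and the Fzd6 call in 6 of 8. It was lost without WT replicate 1 or without WT replicate 3, with a limma adjusted p of at most 0.0564. Exons of Fzd5 share 1233 bases (17.8%) with the unclassified antisense model Gm38058, and those of Fzd6 share 152 bases (3.15%) with the antisense transcript Gm26704, which was 0.644 TPM in hSKP2-KI and 1.35 TPM in WT.

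The composition of the Frizzled pool does not depend on the scaling of a sample. In TPM as deposited, all 10 Frizzled transcripts together summed to 139 ± 9.67 TPM in hSKP2-KI and 120 ± 10.8 TPM in WT. Unlike the shares, this sum carries the upward shift of TPM in hSKP2-KI, so its direction depends on the scaling. Fzd6 held 24.4 ± 1.68% of the pool in hSKP2-KI and 31.3 ± 2.46% in WT, with 22.3 to 25.9% against 28.8 to 34.4%. Fzd5 held 12.6 ± 0.454% and 15.6 ± 0.240%, with 12.0 to 13.0% against 15.4 to 16%, so neither gene overlapped. Fzd2 took 12.9 ± 1.85% and 9.79 ± 0.602%, and Fzd10 took 2.28 ± 0.0602% and 1.70 ± 0.538%, both higher in hSKP2-KI without overlap. The shares of Fzd1, Fzd3, Fzd4, Fzd7 and Fzd8 overlapped. These shares are given as a description, and shares of 1 pool are not independent of each other.

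**Figure D3:**
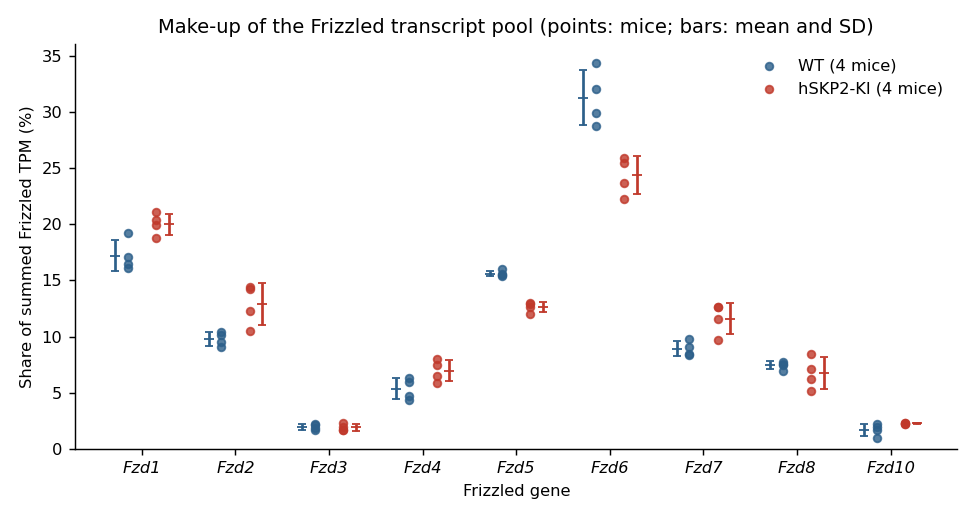
Share of the summed Frizzled TPM (%) taken by each of 9 Frizzled genes, with 1 point per mouse and bars for the mean and SD (n = 4 per genotype). Fzd6 and Fzd5 hold smaller shares in every hSKP2-KI mouse than in any WT mouse, and Fzd2 and Fzd10 hold larger ones.

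Fzd3 and Fzd8 were close to equal in TPM as deposited and changed sign with the scaling. Fzd3 was 2.64 ± 0.442 TPM in hSKP2-KI and 2.36 ± 0.436 TPM in WT, with a log2 fold change of 0.12 (limma adjusted p = 0.504) and of -0.08 after median-ratio scaling. Fzd8 was 9.23 ± 1.42 TPM and 8.93 ± 1.16 TPM, with 0.04 (limma adjusted p = 0.81) and -0.22 after scaling (limma adjusted p = 0.264). Fzd9 lay below the filter at 0.348 to 1.55 TPM.

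Sfrp4 rose more than any other gene of the set in log2 fold change. It encodes a secreted Frizzled-related protein and lies on chromosome 13 (19623175 to 19632825, GRCm38.p6, Entrez gene 20379). It measured 8.05, 18.6, 13.7 and 7.0 TPM in hSKP2-KI and 1.92, 3.72, 2.00 and 2.45 TPM in WT. The lowest hSKP2-KI value was above the highest WT value, the ratio of means was 4.69, and the log2 fold change was 1.80 (SE 0.27, limma adjusted p = 0.00187). After median-ratio scaling it was 1.57 (limma adjusted p = 0.00788), and the call was kept in each of the 8 fits that left out 1 sample on either scale, with TPM fold changes of 1.56 to 1.99 on the log2 scale.

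Dkk3, a divergent Dickkopf gene that is less tied to Wnt co-receptors than its relatives, rose almost as much (chromosome 7, 112116019 to 112159482, Entrez gene 50781). It measured 16.6, 12.2, 14.7 and 19.5 TPM in hSKP2-KI and 3.02, 6.85, 2.78 and 5.39 TPM in WT. The genotypes did not overlap, the ratio of means was 3.49, and the log2 fold change was 1.65 (SE 0.23, limma adjusted p = 0.00141), with 1.41 after median-ratio scaling (limma adjusted p = 0.00524). Within the hSKP2-KI group, Sfrp4 was highest in replicate 2, where Dkk3 was lowest, and Dkk3 was highest in replicate 4, where Sfrp4 was lowest. The WT group did not show this, since both genes were highest in replicate 2 (Sfrp4 3.72 TPM, Dkk3 6.85 TPM). Dkk2, which can bind Lrp6, was called higher in TPM as deposited (3.18 ± 0.705 TPM against 1.84 ± 0.568 TPM, 0.57, limma adjusted p = 0.0273) and not after scaling (0.37, limma adjusted p = 0.148). Dkk1 and Dkk4 were listed above 0 in 1 sample each, at 0.0794 and 0.0708 TPM.

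Sfrp2 was the most abundant Sfrp transcript and rose, with a ratio of means of 1.96 in TPM as deposited (chromosome 3, 83765750 to 83774314, Entrez gene 20319). It measured 47.0, 48.6, 34.2 and 47.3 TPM in hSKP2-KI and 26.0, 23.0, 19.6 and 21.9 TPM in WT. All hSKP2-KI samples were higher than all WT samples in TPM as deposited, with a log2 fold change of 0.93 (SE 0.12, limma adjusted p = 0.00114). After median-ratio scaling the genotypes overlapped, with means of 40.0 and 25.0 and a log2 fold change of 0.66 (limma adjusted p = 0.0186). Exons of Sfrp2 share 347 bases (16.1%) with the antisense gene Gm26771. Sfrp1 was called higher in TPM as deposited (19.9 to 29.2 TPM against 11.8 to 17.5 TPM, 0.59, SE 0.14, limma adjusted p = 0.0121) and not after scaling (0.32, limma adjusted p = 0.128). Sfrp5 was not called on either scale, at 5.64 ± 1.32 TPM and 4.47 ± 1.76 TPM.

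Wif1, which binds Wnt ligands directly, was the most abundant transcript of the set and exceeded the summed ligands in every sample. It measured 138, 254, 226 and 205 TPM in hSKP2-KI and 117, 108, 135 and 111 TPM in WT. The genotypes did not overlap by a small margin, since hSKP2-KI replicate 1 (138 TPM) was next to the highest WT sample (135 TPM). The log2 fold change was 0.77 (SE 0.16, limma adjusted p = 0.00687), and after median-ratio scaling 0.49 and not called (limma adjusted p = 0.0917). Without hSKP2-KI replicate 1 the scaled difference was 0.65 and called (limma adjusted p = 0.024).

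In TPM as deposited, the 10 secreted inhibitor transcripts summed to 311 ± 55.0 TPM in hSKP2-KI and 169 ± 7.54 TPM in WT. They ranged from 241 to 374 TPM and from 165 to 181 TPM, and these sums carry the upward shift of TPM in hSKP2-KI. Of the 7 tested inhibitors, 6 were called higher in TPM as deposited (85.7%, against 32.7% of all tested genes) and 3 after median-ratio scaling (42.9%, against 6.64%), with medians of 0.77 and 0.49. The ratio of summed inhibitors to summed ligands, which is free of the scaling, was 3.83 ± 0.718 in hSKP2-KI and 3.34 ± 0.297 in WT and overlapped, at 2.82 to 4.49 and 3.00 to 3.71. Within the inhibitor pool the share of Sfrp4 was 3.71 ± 1.17% and 1.5 ± 0.529%, without overlap, while Wif1 held 65.6 ± 5.74% and 69.3 ± 4.11%, with overlap. Notum, at 0.473 to 1.45 TPM, lay below the filter.

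Rspo3, the R-spondin of mesenchymal and endothelial cells, rose in hSKP2-KI and held almost all R-spondin transcripts (95.7 ± 2.16% in hSKP2-KI and 94.1 ± 1.22% in WT). The gene lies on chromosome 10 (29453106 to 29535867, Entrez gene 72780). It measured 33.4, 37.5, 34.6 and 46.7 TPM in hSKP2-KI and 21.0, 21.9, 21.7 and 24.2 TPM in WT. The WT samples were tightly grouped below all hSKP2-KI samples, with a log2 fold change of 0.74 (SE 0.11, limma adjusted p = 0.00169) and of 0.46 after median-ratio scaling (limma adjusted p = 0.0164). Exons of Rspo3 share 404 bases (13.1%) with the antisense gene Gm48159. Rspo1, Rspo2 and Rspo4 lay below the filter and overlapped between genotypes, with a highest value of 1.82 TPM for Rspo1 in hSKP2-KI replicate 2.

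Lgr5, an R-spondin receptor and stem cell marker, measured 21.1, 24.6, 20.5 and 20.8 TPM in hSKP2-KI and 15.9, 12.3, 15 and 17 TPM in WT. It did not overlap and was called higher in TPM as deposited (0.51, SE 0.11, limma adjusted p = 0.00747), but not after median-ratio scaling (0.24, limma adjusted p = 0.245), where the genotypes overlapped.

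Axin2, a scaffold of the beta-catenin destruction complex that canonical signalling induces as feedback, measured 13.1, 13.8, 18.4 and 24.8 TPM in hSKP2-KI and 9.79, 14.3, 9.26 and 9.57 TPM in WT. WT replicate 2 lay within the hSKP2-KI range. The log2 fold change was 0.64 in TPM as deposited (SE 0.19, limma adjusted p = 0.0297) and 0.37 after median-ratio scaling (limma adjusted p = 0.204), and without hSKP2-KI replicate 4, the highest sample, it was 0.46 in TPM and not called (limma adjusted p = 0.0656). Exons of Axin2 share 209 bases (3.80%) with the antisense gene Gm11670, and those of Wnt5a share 358 bases (4.58%) with the antisense gene Gm2670.

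Several calls in TPM as deposited were lost when single mice were left out. For Wnt7b this was hSKP2-KI replicate 4 (limma adjusted p = 0.0589). For Wnt10b it was WT replicate 1, 3 or 4 or hSKP2-KI replicate 1, 2 or 3 (limma adjusted p up to 0.0825), for Fzd1 WT replicate 1, 3 or 4 or hSKP2-KI replicate 2 or 4 (up to 0.0693), and for Fzd4 WT replicate 1 or 3 or hSKP2-KI replicate 2, 3 or 4 (up to 0.0786). For Fzd10 it was WT replicate 1 or hSKP2-KI replicate 2, 3 or 4 (up to 0.0632), for Dkk2 WT replicate 1 or 3 or hSKP2-KI replicate 2 or 4 (up to 0.0751), and for Axin2 WT replicate 1, 3 or 4 or hSKP2-KI replicate 3 or 4 (up to 0.0751). The direction stayed the same in each of these fits. The calls of Wnt4, Wnt5a, Wnt9a, Fzd2, Fzd7, Sfrp1, Sfrp2, Sfrp4, Dkk3, Rspo3, Wif1 and Lgr5 in TPM as deposited were kept in all 8 fits that left out 1 mouse.

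Beyond the set, 76 other genes of the pathway were listed by role, and 63 were tested. In TPM as deposited 29 were called higher (46.0%) and 0 lower (background as above, 32.7% and 1.23%), with a median log2 fold change of 0.28. After median-ratio scaling 8 were called higher (12.7%, background 6.64%) and 3 lower (background 4.76%), with a median of 0.04. Under all 4 scalings 4 of the 63 were called higher (6.35%, background 4.87%) and 0 lower. The shares of each role list below are to be read against the same backgrounds.

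Ctnnb1, Lrp5, Lrp6, Apc and Gsk3b, 5 genes of the canonical relay, lay within -0.12 to 0.01 on the log2 scale after median-ratio scaling. Ctnnb1, which encodes beta-catenin, was 323 ± 13.8 TPM in hSKP2-KI and 274 ± 20.6 TPM in WT, with a log2 fold change of 0.24 (limma adjusted p = 0.0353) in TPM as deposited and -0.05 (limma adjusted p = 0.727) after median-ratio scaling. The co-receptor genes Lrp5 (0.28 and 0.01) and Lrp6 (0.22 and -0.06), and Apc (0.15 and -0.12) and Gsk3b (0.18 and -0.09) of the destruction complex, were not called on either scale. Of the 15 tested cytoplasmic genes, 5 were called higher in TPM as deposited (33.3%, beside 32.7% of all tested genes), and none after scaling. Among these 5 were the feedback inhibitors Nkd2 (0.60 and, after scaling, 0.35) and Nkd1 (0.48 and 0.23), and Tnks2 (0.35 and 0.07). Of the 7 tested co-receptors and alternative receptors, 2 were called higher in TPM as deposited (28.6%, below the 32.7% of all tested genes), the Wnt-binding receptor Ryk (0.48) and the polarity receptor Ptk7 (0.42), and none after scaling.

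Of the 7 tested genes that produce, carry or bind Wnt ligands, 6 were called higher in TPM as deposited (85.7%) and 3 after scaling (42.9%). Gpc4, a heparan sulfate proteoglycan, measured 17.2, 22.4, 21.6 and 21.4 TPM in hSKP2-KI and 8.66, 9.82, 8.35 and 9.55 TPM in WT. It rose without overlap, by 1.10 on the log2 scale (limma adjusted p = 0.000187) and by 0.83 after scaling (limma adjusted p = 0.000715). Adgra2, a co-receptor for Wnt7 ligands in the vasculature, rose by 0.76 (limma adjusted p = 0.00176), and Gpc3 was called on both of these scales (0.61 and 0.34).

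Of the 6 tested further inhibitors, 3 were called higher in TPM as deposited (50.0%) and 1 after scaling (16.7%). Frzb, a relative of the Sfrp genes, measured 10.5 ± 2.86 TPM in hSKP2-KI and 5.26 ± 1.13 TPM in WT, with 0.86 (limma adjusted p = 0.00789) and 0.61 after scaling (limma adjusted p = 0.0736). Trabd2b, a membrane protease that cleaves Wnt proteins, was called on both scales (0.86 and 0.66), and Kremen1 (0.32 and 0.05), a Dkk receptor, only in TPM as deposited.

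Among 11 tested nuclear genes 7 were called higher in TPM as deposited (63.6%), and 1 higher (9.09%) and 1 lower after scaling. Lef1 was 1.82 ± 0.257 TPM and 0.921 ± 0.0579 TPM, with 0.55 (limma adjusted p = 0.00799) and 0.39 after scaling (limma adjusted p = 0.0459). Tcf7 (0.56 and 0.34), Bcl9 (0.54 and 0.30) and Tcf7l2 (0.34 and 0.08) were called in TPM as deposited and not after scaling.

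Among 7 tested target genes 3 were called higher in TPM as deposited (42.9%), and 2 higher (28.6%) and 1 lower after scaling. Tnfrsf19, a TNF receptor family gene that beta-catenin can induce, measured 12.2, 12.3, 11.4 and 13.3 TPM in hSKP2-KI and 4.75, 5.37, 4.53 and 5.22 TPM in WT and rose by 1.16 on the log2 scale (limma adjusted p = 8.81e-05). Ccnd1, the gene of cyclin D1, was 53.6 ± 15.8 TPM and 26.7 ± 3.58 TPM and rose by 0.95 (limma adjusted p = 0.00365). Cd44 was called in TPM as deposited only (0.56 and 0.31). The gene called lower after scaling was Myc (-0.07 in TPM as deposited and -0.34 after scaling, limma adjusted p = 0.0376), which is named here because its values were seen. Myc was not called under quantile normalization (-0.31, limma adjusted p = 0.0606) or without the 20 most abundant genes (-0.31, limma adjusted p = 0.0835). Of the 10 tested genes of the planar polarity branch 3 were called higher in TPM as deposited (30.0%, below the 32.7% of all tested genes), and 1 higher (10.0%, background 6.64%) and 1 lower after scaling, with Prickle2 (0.55 and 0.40) called on both. Invs (0.50 and 0.30) and Vangl1 (0.42 and 0.18) were called in TPM as deposited and not after scaling.

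Markers of the stroma and of several other cell types were also higher in hSKP2-KI. The mean log2(TPM + 1) of the 8 fibroblast markers was 6.09 ± 0.43 in hSKP2-KI and 5.05 ± 0.21 in WT, a difference of 1.05 (two-sided exact permutation p = 0.0286, the smallest that 4 against 4 mice allow, adjusted p = 0.0629 over 11 marker lists). All 8 fibroblast markers were called higher in TPM as deposited and 4 after median-ratio scaling, and their summed TPM was 837 to 1470 in hSKP2-KI and 458 to 643 in WT. Of all tested genes, 32.7% were called higher in TPM as deposited and 6.64% after scaling. The counts of all marker lists are to be read against these shares. Smooth muscle markers differed by 0.77, with all 6 called higher and 2 after scaling, at summed TPM of 3010 to 4620 and 2030 to 2560. After median-ratio scaling the difference was 0.77 for the fibroblast markers and 0.49 for the smooth muscle markers. The luminal and pan-epithelial markers differed by 0.20 in TPM as deposited and by -0.09 after scaling, with summed TPM of 2700 to 2880 and 2350 to 2550.

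The other lists differed by 1.9 (proximal luminal, all 4 called on both scales, summed TPM of 271 to 412 and 78.3 to 87.8), 0.97 (macrophage), 0.64 (endothelial), 0.54 (Schwann cell), 0.47 (basal epithelial), 0.41 (skeletal muscle), -0.01 (adipocyte) and -0.02 (seminal vesicle). Of these, the proximal luminal and endothelial lists did not overlap between genotypes in TPM as deposited. On that scale the smallest adjusted exact permutation p among the 11 lists was 0.0629, so none passed 0.05. After median-ratio scaling the differences were 1.62 (proximal luminal), 0.71 (macrophage), 0.39 (endothelial), 0.33 (Schwann cell), 0.20 (basal epithelial), 0.20 (skeletal muscle), -0.28 (adipocyte) and -0.04 (seminal vesicle). The endothelial list then overlapped between genotypes (two-sided exact permutation p = 0.0571). The part of these cell types in the Wnt module differences was not tested.

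Set against the fibroblast markers of the same mouse, a measure in which the scaling of a sample cancels for abundant genes but not fully for genes near 1 TPM, Sfrp4 and Dkk3 were the 2 of 27 genes that stood higher in hSKP2-KI. The log2 level of Sfrp4 minus the marker mean was 0.75 higher, from -3.26 ± 0.19 in WT to -2.51 ± 0.28 in hSKP2-KI, without overlap, which was the case for 0.13% of tested genes. For Dkk3 the difference was 0.61, and the genotypes overlapped (two-sided exact permutation p = 0.171, adjusted p = 0.231 over the 27 genes). The other 25 were below 0, with a median of -0.50 over the 27, and 10 were lower without overlap, against 75.4% of tested genes. Sfrp2 (-0.11), Wif1 (-0.27), Wnt5a (-0.28) and Rspo3 (-0.31) were among those nearest to 0 and overlapped, and Fzd6 (-1.19), Fzd5 (-1.14) and Fzd8 (-1.01) were the lowest.

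Set against the smooth muscle markers, the other stromal list, Sfrp4 was 1.02 and Dkk3 0.88 higher, and both overlapped between genotypes. None of the 27 genes was higher without overlap on this measure (background 0.39%), and 5 were lower without overlap (Wnt2b, Fzd3, Fzd5, Fzd6 and Fzd8), against 50.3% of tested genes. The median over the 27 was -0.23.

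Set against the luminal and pan-epithelial markers, 22 of the 27 were above 0, with a median of 0.35. Of these, 10 were higher without overlap (37.0% of the 27), against 10.1% of tested genes, with Sfrp4 at 1.60, Dkk3 at 1.45 and Sfrp2 at 0.73. Fzd5 (-0.29) and Fzd6 (-0.34) were the 2 that were lower without overlap, against 4.62% of tested genes.

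**Figure D4:**
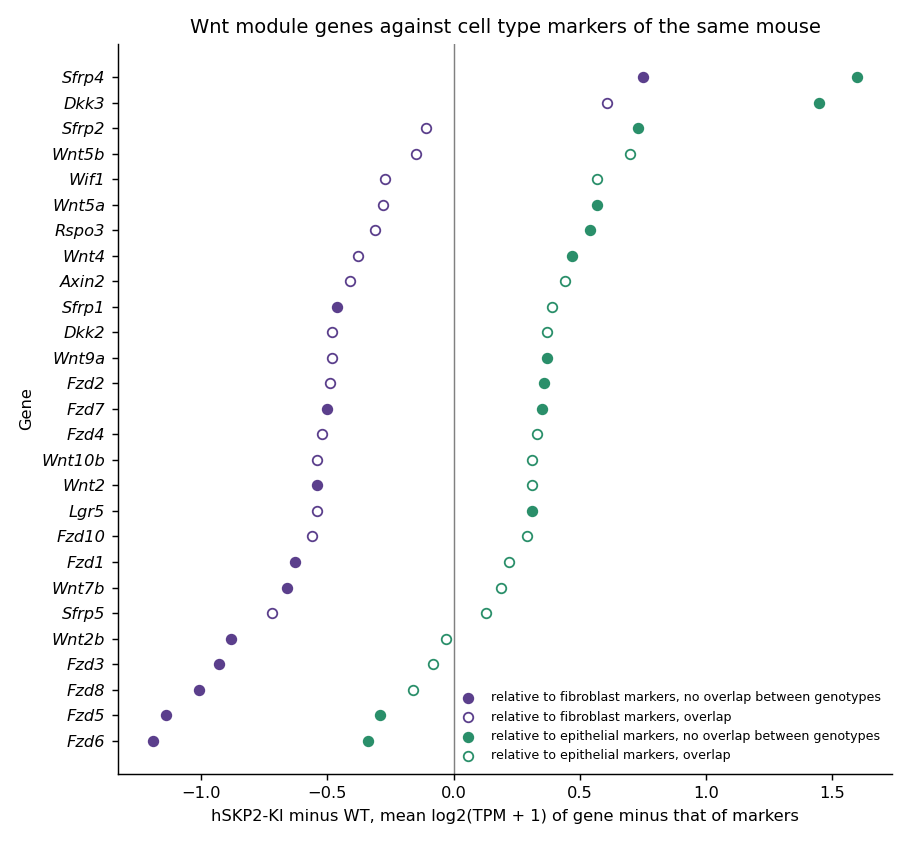
Difference between hSKP2-KI and WT (n = 4 each) in the log2(TPM + 1) of each gene minus the mean of the fibroblast markers (purple) or of the luminal and pan-epithelial markers (green) of the same mouse, with filled points where the genotypes do not overlap. Sfrp4 and Dkk3 are to the right of 0 on both measures, and Fzd5 and Fzd6 are to the left on both. No gene had an adjusted exact permutation p under 0.05 on either measure.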

How the data were processed

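The authors sequenced poly(A) RNA from the ventral prostate of 4 hSKP2-KI and 4 WT mice, with 1 library for each mouse, so p-values measure the spread between mice. The authors trimmed and mapped paired-end reads in CLC software and deposited 1 table of TPM for the 8 samples. The genome build is mm10/GRCm38 per the submitters' processing notes, and the software version, gene annotation and use of strand in counting are not given in the sources used here. The deposited TPM values were found to sum to 1000000 in each sample, and 0 columns belonged to other samples. Depth is unknown, so no interval from counts and no count model was used.

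Groups follow the genotype in the labels. Genes with at least 1 TPM in at least 4 of 8 samples were fitted as log2(TPM + 1) in limma 3.58.1 (R 4.3.3), allowing a mean-variance trend. Benjamini-Hochberg adjustment ran over all 13080 tested genes, with a threshold of 0.05. Median-ratio scaling used genes above 0 in all samples. Single values per mouse, such as the mean log2 level of a marker list, were compared by a two-sided exact permutation test over 70 assignments, whose smallest p is 0.0286. Set members, pathway lists and marker lists (fibroblast, smooth muscle, luminal and pan-epithelial, basal epithelial, proximal luminal, endothelial, macrophage, Schwann cell, seminal vesicle, adipocyte and skeletal muscle) were chosen with earlier results of these data known, and counts over a list were set beside those over all tested genes. Named were all members, Frzb, Lrp5, Lrp6, Ctnnb1, Apc, Gsk3b and Tcf7l2, up to 3 called genes with the largest change in each pathway list, and Skp2 and Pbsn. Myc was named after its values were seen.

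The alternatives were a pseudocount of 0.1, no filter, a mean of at least 5 TPM, median-ratio scaling, quantile normalization, TPM without the 20 most abundant genes, robust empirical Bayes, leaving out each sample, and the replicate number as a block. Median-ratio scaling combined with the block, with a pseudocount of 0.1 or with leaving out each sample was added after seeing the data. Promoter windows and gene positions came from RefSeq (GRCm38.p6), and exon overlaps from GENCODE annotation of GRCm38. The fit was tested on simulated data. Python 3.11.15 and matplotlib 3.10.9 made the figures.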

Additional observations from a re-analysis of the deposited data

Results flagged for a closer look

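In 9 of 76 groups of 4 mice that were examined, 1 mouse lay far from the other 3, by a gap that passed Dixon's 95% limit for 4 values, where chance gives about 1 in 20 groups. Among hSKP2-KI mice, Wnt2 was low in replicate 1 (0.624 TPM, the others 1.77 to 2.08 TPM), as was Fzd6 (28.2 TPM, the others 35.1 to 36.5 TPM). Sfrp2 was low in hSKP2-KI replicate 3 (34.2 TPM, the others 47.0 to 48.6 TPM), and Lgr5 was high in hSKP2-KI replicate 2 (24.6 TPM, the others 20.5 to 21.1 TPM). Among WT mice, Wnt2b (0.520 TPM, the others 0.986 to 1.09 TPM) and Fzd2 (10.3 TPM, the others 12.1 to 12.2 TPM) were low in replicate 1, and Axin2 was high in replicate 2 (14.3 TPM, the others 9.26 to 9.79 TPM). The mean log2(TPM + 1) of the seminal vesicle markers was 0.20 in hSKP2-KI replicate 2 and 0 in the other hSKP2-KI mice, and that of the adipocyte markers was 3.10 in WT replicate 3 and 5.04 to 5.32 in the other WT mice.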

How the results depend on the processing

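The number of Wnt module genes called higher depended most on the scaling. From 19 in TPM as deposited it went to 5 with median-ratio scaling, 4 with quantile normalization and 6 without the 20 most abundant genes, while the number called lower went from 0 to 2 under each of the 3. With median-ratio scaling and either a pseudocount of 0.1 or the replicate block it was 5 higher and 2 lower. Leaving out each mouse gave 13 to 20 higher and 0 lower in TPM, and 4 to 6 higher and 1 to 2 lower with median-ratio scaling. Over all tested genes, 4272 higher and 161 lower became 869 and 623 (median-ratio scaling), 720 and 605 (quantile normalization), and 887 and 434 (without the 20 most abundant genes). Leaving out each mouse gave 2839 to 4548 higher and 114 to 154 lower, with 2839 without WT replicate 1. For the other pathway genes, 29 higher and 0 lower became 8 and 3, 6 and 2, and 6 and 1 under the same 3 scalings, and 18 to 35 higher and 0 lower without 1 mouse, with 18 without WT replicate 1 or without hSKP2-KI replicate 4. The cause was not tested.

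Some values changed sign. Under median-ratio scaling, quantile normalization and without the 20 most abundant genes, in this order, the log2 fold changes were -0.08, -0.21 and -0.07 for Fzd3, -0.22, -0.24 and -0.19 for Fzd8, -0.06, -0.03 and -0.02 for Lrp6, -0.12, -0.12 and -0.08 for Apc, -0.09, -0.07 and -0.06 for Gsk3b, and -0.05, -0.02 and -0.01 for Ctnnb1. Wnt2b was -0.07 under quantile normalization, and Fzd8 was -0.03 without WT replicate 1 and -0.03 without hSKP2-KI replicate 1. The epithelial marker difference was -0.09 under median-ratio scaling. The seminal vesicle difference was 0.02 without WT replicate 1, and that of skeletal muscle ran from -0.17 without hSKP2-KI replicate 4 to 0.91 without WT replicate 2. Leaving out each mouse gave adipocyte differences of -0.53 to 0.33 (0.33, 0.09, 0.14, 0.12 and 0.22 without hSKP2-KI replicate 1 or 3 or WT replicate 1, 2 or 4). Relative to fibroblast markers, Wnt5b was 0.00 with a pseudocount of 0.1 and -0.46 to 0.01 without 1 mouse (0.01 without WT replicate 2), and Sfrp2 was -0.27 to 0.04 without 1 mouse (0.04 without hSKP2-KI replicate 2 or without WT replicate 1).

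With no filter 14 of 42 Wnt module genes were called higher (13.7% of all genes in that fit), and with a mean of at least 5 TPM 14 of 19 (34.6% of all genes). The named pathway genes that lost their call in TPM without at least 1 mouse included Kremen1, Ctnnb1, Nkd1, Nkd2, Tcf7, Tcf7l2 and Cd44. They went down to 0.28, 0.18, 0.42, 0.51, 0.42, 0.26 and 0.42 on the log2 scale. The deviations of mice with the same replicate number from their group means correlated at 0.22, -0.11, 0.17 and -0.01. Mice with different numbers were not compared, so whether the replicate numbers pair the mice was not tested. With the replicate block 20 Wnt module genes were called higher, with Wnt5b added (limma adjusted p = 0.0318), and over all genes 4941 higher and 187 lower. TPM without depth leaves unknown how much of the spread of genes near 1 TPM comes from counting.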
